A study of Papio hamadryas with 72 samples.

Results

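The genes described here are the nuclear genes of respiratory complex I, taken as every gene whose symbol in the probe table of the series begins with NDUF. The table holds 39 such symbols among 16828 genes. NDUFB2-AS1, an antisense RNA that was detected on 0 arrays, was left out, which leaves 38 members with 47 probes. A member counted as measured in a tissue where 6 or more of the tissue's 24 arrays gave a probe a detection score over 0.95, and its brightest such probe stands for it. By this rule 34 members were measured in skeletal muscle, and 31 each in liver and in adipose.

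Complex I (NADH:ubiquinone oxidoreductase) is the entry point of the mitochondrial respiratory chain for electrons from NADH. Its matrix arm takes the electrons from NADH through a flavin and a chain of iron-sulfur clusters to ubiquinone, and its membrane arm pumps protons. Core subunits of bacterial origin do the catalysis, accessory subunits surround them, and assembly factors help to build the enzyme without staying in it. The membrane arm's core subunits are encoded by mitochondrial DNA and have no NDUF symbol, so they are not among the members. Skeletal muscle is known for a high content of mitochondria.

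The samples came from 12 juvenile baboons (Papio hamadryas) of 4.5 years. The 6 CON animals were born to mothers that fed freely, and the 6 MUN animals to mothers given a nutrient-reduced diet in pregnancy and lactation, with 3 females and 3 males in each maternal group. Liver, skeletal muscle (vastus lateralis) and omental adipose were biopsied while the animals ate a low-fat chow, and again after 7 weeks of HFCS, a Western-style diet high in fat, carbohydrate and salt with a fructose drink. Each of the 12 combinations of tissue, maternal group and diet holds 6 arrays, 72 in all. Every animal passed from chow to HFCS, so effects of diet, of time and of the earlier biopsy cannot be told apart.

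RNA was hybridised to human Illumina BeadChips, and levels are log2 signals. The tissues carried their own markers. The mean over 6 hepatocyte genes was 14.04 in liver, 7.29 in muscle and 7.07 in adipose, that over 6 slow fiber genes was 12.5 in muscle and 7.02 in liver and in adipose, and that over 6 adipocyte genes was 9.37 in adipose against 7.40 in liver and 7.91 in muscle. A total of 4 arrays stood apart, with a median correlation to the other arrays of their tissue below 0.9. These weak arrays are liver MUN replicate 4 on chow (0.501) and on HFCS (0.092), liver MUN replicate 6 on chow (0.675), and muscle CON replicate 5 on chow (-0.007). All 4 came from males, so without them these groups hold fewer males than females, and sex was not in the fits. The mean of the hepatocyte genes reached 12.753 on muscle CON replicate 1 on chow, and the mean of 5 fibroblast genes (COL1A1, COL1A2, COL3A1, DCN, LUM) was 11.01, 11.00 and 11.11 on the muscle arrays of CON replicates 4 and 5 and of MUN replicate 5 on HFCS, above every muscle array on chow. Results are given with all arrays and without the weak arrays.

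The members were spread over the parts of the enzyme. The matrix arm holds 12 members, the proximal membrane arm 7, the distal membrane arm 12, and 7 are assembly factors. NDUFB4, NDUFB10, NDUFC2 and NDUFS1 were measured in no tissue, and 29 members were measured in all 3. NDUFA10 and NDUFAF5 did not pass the detection filter in liver, NDUFA5 and NDUFAB1 did not pass it in adipose, and NDUFB1 passed it only in muscle. Of the 5 core subunits in the table, NDUFV1, NDUFV2, NDUFS7 and NDUFS8 were measured in every tissue. The 2 probes of NDUFV3, an accessory subunit made in a long and a short form, were detected in different tissues. Its first probe was detected on 7 liver, 24 muscle and 23 adipose arrays, and its second probe on 16 liver arrays and on 0 arrays of muscle and adipose. Which form each probe reads is not given in the sources used here. The probes were designed on human transcripts, and their match to baboon RNA was not tested.

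Skeletal muscle had the highest levels of most complex I genes. With all 72 arrays normalised together, 25 of the 29 members measured in every tissue were called lower in liver than in muscle (29.9% of the 6417 genes tested were), and 26 were called lower in adipose than in muscle (19.6% of genes). A call needed a fold change of 1.2 or more together with an adjusted p (Benjamini-Hochberg, over all genes tested) under 0.05 in limma, here with the animal as a random block. Without the weak arrays the counts were 27 of 29 in liver (33% of genes) and 27 of 29 in adipose (21.9% of genes). No member was called higher than in muscle in either tissue, where 24.2% of genes were called higher in liver and 31.2% in adipose. NDUFV3 is counted here by its first probe, and its second was not tested between tissues. The median difference of the members was -0.83 for liver minus muscle and -1.19 for adipose minus muscle, against -0.05 and 0.00 over all genes tested. In these pieces of tissue, fewer cells of a type and less RNA per cell cannot be told apart.

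In 10 of the 29 members every muscle array lay above every liver and adipose array, without the weak arrays, against 4.63% of the genes tested. These were the core subunits NDUFS7 and NDUFV2, both holders of iron-sulfur clusters, the matrix arm accessory subunits NDUFS4 and NDUFA12, the proximal membrane arm subunits NDUFA1 and NDUFA3, and the distal membrane arm subunits NDUFB2, NDUFB3, NDUFB6 and NDUFB9. They come from all structural parts of the enzyme, and no assembly factor was among them.

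Without the weak arrays, the widest gap between liver and muscle was in NDUFB2, an accessory subunit of the distal membrane arm. Its level ran from 7.82 to 8.43 in liver (median 8.13, n = 21), from 9.61 to 10.48 in muscle (median 10.03, n = 23) and from 7.96 to 8.70 in adipose (median 8.39, n = 24). The difference for liver minus muscle was -1.90 (SE 0.054, 3.73-fold, adjusted p = 1.97e-40 in limma), so muscle stood clear of both tissues, while liver and adipose overlapped.

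The widest gap between adipose and muscle was in NDUFS7, whose iron-sulfur cluster passes electrons to ubiquinone. In muscle it ran from 11.21 to 12.92 (median 12.35), in liver from 10.57 to 11.11 (median 10.83) and in adipose from 10.02 to 11.13 (median 10.37). The difference for adipose minus muscle was -1.91 (SE 0.071, 3.75-fold, adjusted p = 6.09e-34 in limma). The lowest muscle array lay just above the highest adipose array.

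NDUFS4, an accessory subunit of the NADH-oxidising end that is needed for a stable enzyme, also separated muscle fully from the others. Its levels were 9.85 to 10.55 in liver (median 10.26), 11.14 to 12.00 in muscle (median 11.49) and 9.59 to 10.39 in adipose (median 9.98). The differences were -1.21 for liver minus muscle (2.31-fold) and -1.49 for adipose minus muscle (2.82-fold). NDUFB5, of the distal membrane arm, was arranged differently. It ran from 9.04 to 10.31 in liver (median 9.29), from 9.35 to 10.63 in muscle (median 10.13) and from 7.98 to 8.88 in adipose (median 8.40), so that liver and muscle overlapped and adipose lay below both. Its difference for adipose minus liver, -0.94, was the largest of the 29 members in either direction. NDUFAB1 and NDUFA5 passed the filter in liver and muscle but not in adipose, so they are outside the 29. They were nearly level between liver and muscle, with medians of 7.69 and 7.59 for NDUFAB1 and of 7.12 and 7.08 for NDUFA5.

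**Figure D1:**
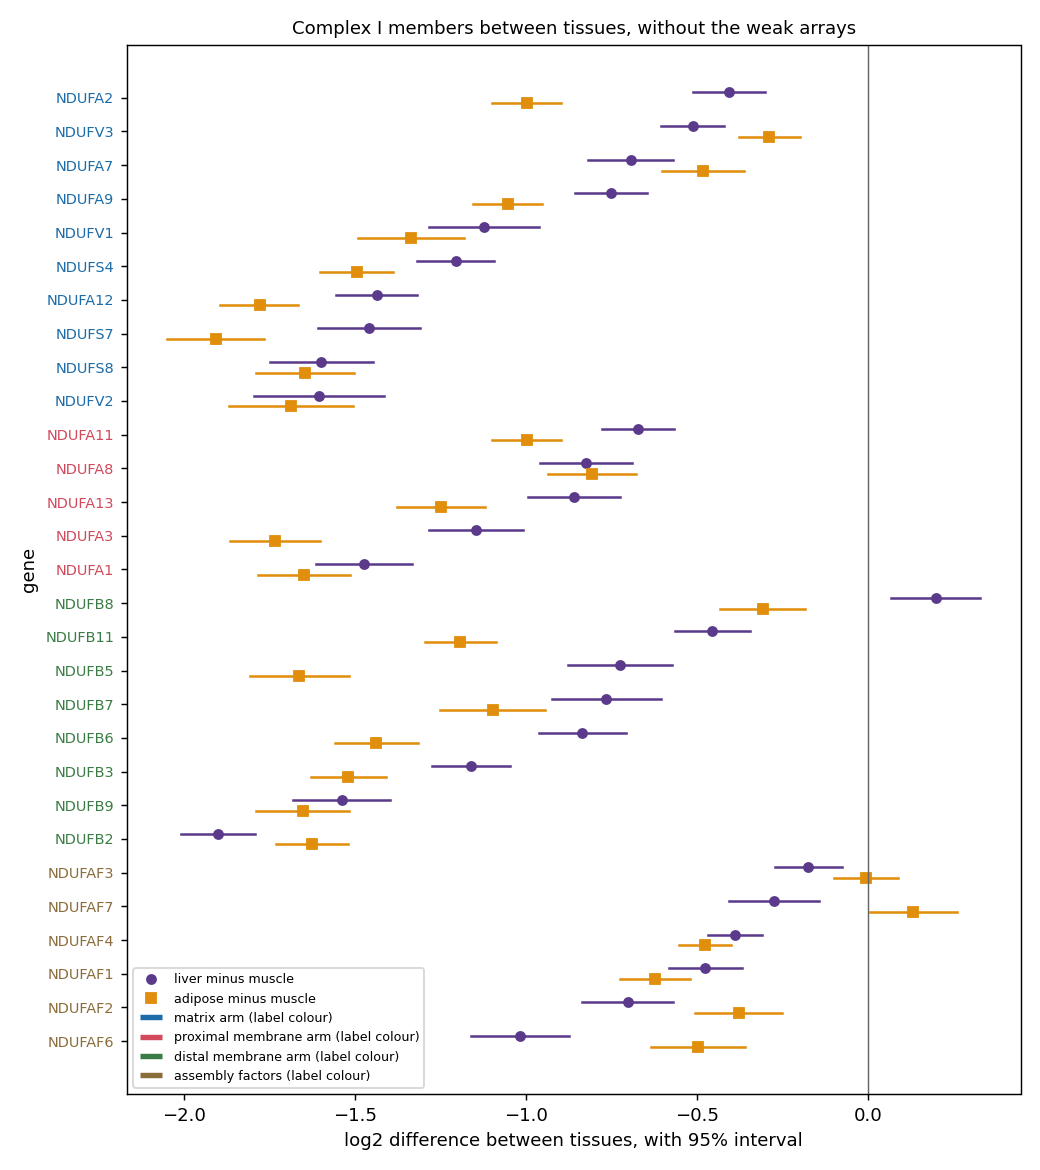
Log2 differences of 29 complex I members between tissues, liver minus muscle (circles) and adipose minus muscle (squares), with bars for the 95% interval from limma; weak arrays are left out. The gene names are coloured by part of the enzyme, and all points lie to the left of 0 except NDUFB8 in liver (0.20) and NDUFAF7 in adipose (0.13).

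The gap to muscle was smaller for the assembly factors than for the structural parts, as a description of their medians. For liver minus muscle, the median difference was -1.16 in the matrix arm, -0.86 in the proximal membrane arm, -0.80 in the distal membrane arm and -0.43 in the assembly factors. For adipose minus muscle it was -1.42, -1.25, -1.48 and -0.43 in the same order. The 4 core subunits had medians of -1.53 and -1.67. Several assembly factors were dim, with median liver signals of 130.5 for NDUFAF6 and 146.7 for NDUFAF4, though NDUFAF3 reached 1199.2. Among the 29 members, the structural ones ranged from 119.5 for the first probe of NDUFV3 to 1714.9 for NDUFS7 and above. NDUFA9 was at 141.0, so dim members were found in both kinds. No background was subtracted, which narrows log2 differences of dim genes, and its part in the smaller gap was not tested. With normexp background correction the median over all members for liver minus muscle was -1.17. Within the matrix arm, NDUFA2 had the smallest gap to liver (-0.41) and NDUFV2 the largest (-1.60). NDUFV3, by its first probe, had the smallest gap to adipose (-0.29). In the proximal membrane arm the gap to liver was smallest for NDUFA11 (-0.67) and largest for NDUFA1 (-1.47).

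Without the weak arrays, few members were not called lower than in muscle. NDUFB8, of the distal membrane arm, had levels of 11.92 to 12.42 in liver and 11.39 to 12.30 in muscle (medians 12.19 and 12.03), a difference of 0.20 (adjusted p = 0.00497 in limma) that was under the fold threshold. NDUFAF3, which acts early in assembly together with NDUFAF4, was nearly level across tissues, with medians of 10.44 in liver, 10.51 in muscle and 10.58 in adipose. Its differences were -0.18 for liver minus muscle and -0.01 for adipose minus muscle. NDUFAF7, a methyltransferase of the assembly factors, had medians of 8.27, 8.47 and 8.66, and its difference for adipose minus muscle was 0.13 (adjusted p = 0.0515). NDUFAF6, by contrast, ran from 7.90 to 8.94 in muscle (median 8.25) and from 7.07 to 7.69 in liver (median 7.22), without overlap, and from 7.18 to 8.32 in adipose (median 7.77).

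Between adipose and liver the members were divided. With all arrays 5 were called lower in adipose (19.2% of genes) and 3 higher (32.5% of genes), and without the weak arrays 14 were lower (20.8% of genes) and 4 higher (35.3% of genes). The lower ones were led by NDUFB5 (-0.94), NDUFB11 (-0.74), NDUFB6 (-0.60), NDUFA2 (-0.59) and NDUFA3 (-0.59), 4 of them membrane arm subunits. The higher ones were the assembly factors NDUFAF6 (0.52), NDUFAF7 (0.41) and NDUFAF2 (0.33), the last a relative of the subunit NDUFA12 that acts late in assembly, and the subunit NDUFB2 (0.27). The module medians were -0.25, -0.32, -0.43 and 0.25 for the matrix arm, the proximal and the distal membrane arm and the assembly factors. The division depended on the scaling. With each array centred on its median and all arrays, 3 members were called lower and 6 higher, their median was 0.09 and that of all genes was 0.20. In that scaling NDUFAF7 was called higher in adipose than in muscle, and without the weak arrays NDUFB8 was called higher in liver than in muscle.

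Other genes of the respiratory chain were set beside the members. As for the members, only genes measured in every tissue are counted here. Of the listed genes left out by this, ATP5F1C, ATP5ME, SDHD and SUCLG2 had higher medians in liver than in muscle (7.73 and 7.23 for ATP5F1C). UQCR11, COX4I2, COX5B and COX6A2 had lower ones (6.87 and 10.42 for COX6A2). Without the weak arrays, all 13 measured genes of complex V, the ATP synthase with its inhibitor ATP5IF1, and all 4 measured subunits of complex III were called lower in both liver and adipose than in muscle, among them CYC1, the cytochrome c1 of complex III (-1.94 in liver). Of 8 subunits of complex IV, 6 were lower and 2 higher in liver, and 7 were lower and 1 higher in adipose, with COX7A1, the muscle and heart form of its subunit, at -3.01 and -3.45. The complex II subunit SDHC was called higher in liver (0.59), and both measured subunits of complex II were lower in adipose. Of 10 enzymes of the TCA cycle, 9 were lower in liver and 8 in adipose. The 8 assembly factors of complex I that have no NDUF name were mixed, with 3 lower and 3 higher in liver and 3 lower and 2 higher in adipose.

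Within a tissue, the maternal groups and the diets were compared by 5 contrasts in each of 3 tissues. No member was called in any of the 15 comparisons with all arrays. Few genes were called at all there: 0.0745% of the 8052 genes in muscle for HFCS minus chow in CON, 0.0216% of 9277 in adipose for MUN minus CON on HFCS, and 0% in the other 13. Without the weak arrays 0.522% of genes were called in muscle for HFCS minus chow in CON and 0% in the 9 other comparisons of muscle and liver, and again no member was. The differences that follow are therefore values, with their unadjusted p, that did not pass the threshold unless this is stated.

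In skeletal muscle the members were on the whole at lower levels on HFCS than on chow, once the weak array was left out. The mean over the 34 members ran from 9.66 to 9.96 on chow in CON (median 9.82, n = 5), from 9.43 to 9.83 on HFCS in CON (9.74, n = 6), from 9.72 to 9.97 on chow in MUN (9.84, n = 6) and from 9.49 to 9.80 on HFCS in MUN (9.69, n = 6). The groups overlapped, and the mean was lower on HFCS in 9 of the 11 animals with both arrays. Its changes were -0.02, 0.10, -0.03, -0.40 and -0.13 in CON replicates 1, 2, 3, 4 and 6. In MUN replicates 1 to 6 they were -0.15, -0.31, 0.04, -0.14, -0.45 and -0.12. The largest fall of each group, in CON replicate 4 and MUN replicate 5, was in animals whose HFCS arrays had fibroblast means of 11.01 and 11.11. In CON 23 of 34 members had a lower mean on HFCS and the median difference was -0.13. In MUN 30 of 34 did and the median was -0.21, while the median over all 8052 genes was -0.01 in CON and 0.00 in MUN. With the weak array the median of the members in CON was 0.15, so the sign of the CON value rested on 1 array, whereas the median in MUN was -0.20 with it.

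**Figure D2:**
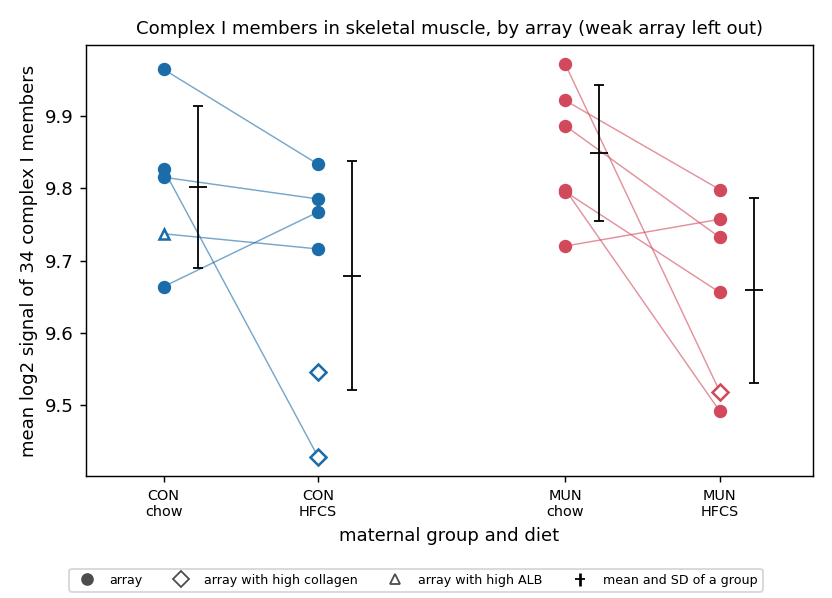
Mean log2 signal of the 34 complex I members on each skeletal muscle array by maternal group and diet, with lines joining the arrays of an animal and bars for the mean and SD of a group; the weak array is left out. The 3 arrays with high collagen (diamonds), all on HFCS, lie between 9.43 and 9.55, near MUN replicate 2 on HFCS at 9.49.

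Of the 4 lowest HFCS arrays, 3 were those with high collagen. Their member means were 9.43, 9.55 and 9.52, beside fibroblast marker means of 11.01, 11.00 and 11.11. All 5 fibroblast markers were measured, and their mean ran from 8.79 to 10.18 on chow in CON, from 8.78 to 11.01 on HFCS in CON, from 8.37 to 9.53 on chow in MUN and from 8.38 to 11.11 on HFCS in MUN. MUN replicate 2 on HFCS was as low, at 9.49, with a fibroblast mean of 8.96. Over the 23 arrays, after subtraction of the group means, the member mean and the fibroblast mean had a correlation of r = -0.66, as a description of arrays that share a normalisation. The part of these cells in the diet differences was not tested.

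At an unadjusted p under 0.05 and without the weak array, 8 of 34 members were lower on HFCS in CON (8.26% of genes) and 9 of 34 in MUN (2.41% of genes). Pooled over both maternal groups, a contrast added after the data had been seen, 15 of 34 were lower (5.02% of genes), none was called (0% of genes) and the smallest adjusted p was 0.261. With all arrays the pooled count was 0 of 34 (1.96% of genes). When the weak array, the array with high ALB and the 3 with high collagen were all left out, the counts were 1 of 34 in CON (6.2% of genes), 10 of 34 in MUN (2.38% of genes) and 8 of 34 pooled (3.91% of genes). Leaving these arrays out thus took the CON count from 8 to 1 and the MUN count from 9 to 10. Besides the weak array, CON lost replicate 1 on chow and replicates 4 and 5 on HFCS, and MUN only replicate 5 on HFCS. The CON contrast therefore lost more precision, and a count at a p threshold also falls with fewer arrays. Leaving out each animal in turn gave pooled counts of 10 to 18, CON counts of 7 to 10 and MUN counts of 4 to 14.

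In CON and in the pooled contrast the member with the smallest p was NDUFV1, the core subunit that binds the flavin and oxidises NADH. In CON the levels on chow were 10.14, 10.59, 10.23, 10.21 and 10.50 in replicates 1, 2, 3, 4 and 6, and the same animals had 9.64, 10.30, 9.95, 9.33 and 9.92 on HFCS, with 9.42 in replicate 5. In MUN the levels on chow ran from 9.87 to 10.50 (median 10.20) and on HFCS from 9.56 to 10.21 (median 9.87). NDUFV1 was lower on HFCS in all 11 animals with both arrays, which held for 1 of 34 members and for 0.137% of genes, although the diet groups overlapped in both CON and MUN. The difference was -0.57 in CON (SE 0.153, 1.49-fold, unadjusted p = 0.00105 and adjusted p = 0.0812 in limma) and -0.33 in MUN (SE 0.146, unadjusted p = 0.0355 in limma). With the animal as a random block and without the weak array, NDUFV1 fell by 0.57 in CON and was called (SE 0.142, adjusted p = 0.0471 in limma), 1 of 34 members where 1.27% of genes were called. With the weak, high ALB and high collagen arrays left out, the values were -0.44 in CON and -0.30 in MUN.

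Members of both arms had differences of similar size in CON. In the matrix arm the core subunits NDUFS7 and NDUFS8 had differences of -0.51 and -0.50 and NDUFA12 one of -0.37, while NDUFS4 was at -0.03 and NDUFV2 at 0.38. In the membrane arm NDUFA1 was at -0.44, NDUFB11 at -0.42, NDUFA11 at -0.39 and NDUFB7 at -0.37. None of these was called. Pooled over both groups NDUFA12 was at -0.34, NDUFS8 at -0.43, NDUFA9 at -0.30 and NDUFS7 at -0.40. NDUFA9 sits close to the ubiquinone site. NDUFS7 was the member in which every CON array on HFCS lay below every CON array on chow, 1 of 34 against 0.994% of genes. The same order in MUN held for 0 of 34 members (0.0994% of genes). In all 5 CON animals with both arrays 9 of 34 members were lower on HFCS (7.22% of genes): NDUFV1, NDUFS7, NDUFS8, NDUFA11, NDUFA12, NDUFA13, NDUFB7, NDUFB8 and NDUFB11. In all 6 MUN animals 5 of 34 were (1.99% of genes): NDUFV1, NDUFA9, NDUFB5, NDUFB6 and NDUFAF7. NDUFV1 stood in both sets.

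**Figure D3:**
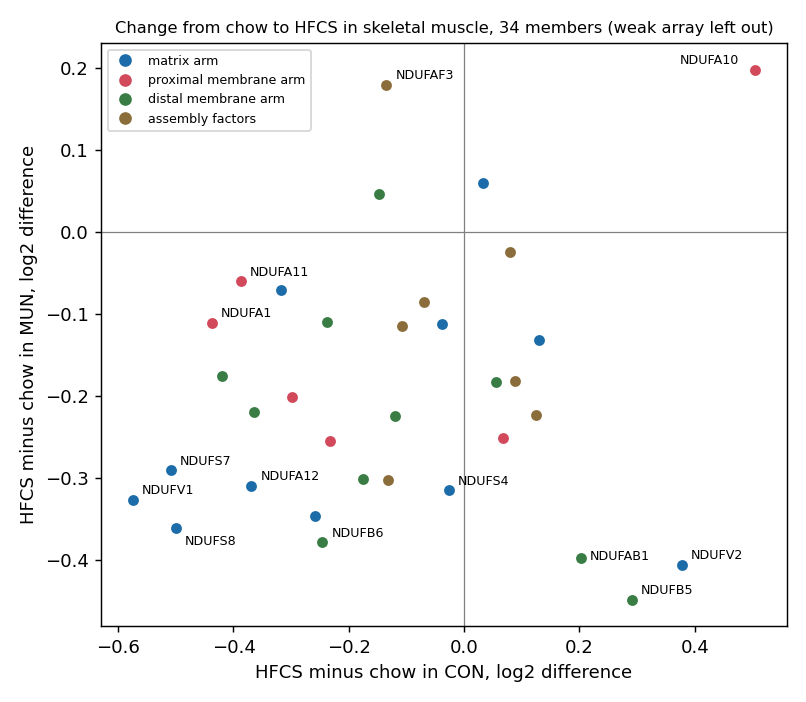
Change of 34 complex I members from chow to HFCS in skeletal muscle, in CON (horizontal axis) and in MUN (vertical axis), as log2 differences from limma without the weak array; colours give the part of the enzyme. Most points lie in the lower left, with NDUFV1 at -0.57 and -0.33, and NDUFV2, NDUFB5 and NDUFAB1 lie in the lower right.

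The members whose diet changes were furthest apart between the maternal groups were NDUFV2, NDUFB5 and NDUFAB1. NDUFB5 levels on chow in CON were 9.70, 9.20, 9.40, 10.36 and 10.21 in replicates 1, 2, 3, 4 and 6, and ran from 9.82 to 10.28 on HFCS (median 10.05). In MUN they ran from 9.95 to 10.49 on chow (median 10.32) and from 9.39 to 9.99 on HFCS (median 9.88), and all 6 MUN animals were lower on HFCS. CON replicates 1, 2 and 3 are females and 4 and 6 males, so the lower CON levels on chow were all of females. The CON changes were 0.29, 0.77 and 0.81 in the females and -0.54 and 0.07 in the males. The -0.54 was in replicate 4, whose HFCS array had high collagen. The part of sex was not tested. The difference between the diet changes, MUN minus CON, was -0.74 (SE 0.23, unadjusted p = 0.0038 and adjusted p = 0.241 in limma), made of 0.29 in CON and -0.45 in MUN. NDUFAB1, the mitochondrial acyl carrier protein, had -0.60 for that difference, from 0.20 and -0.40. It was detected on 19 of the 24 muscle arrays and its mean in the 4 groups lay between 7.32 and 7.72. On chow in CON, NDUFAB1 was also lower in the females (7.31, 7.09 and 7.16) than in the males (8.13 and 7.51). NDUFV2, a core subunit next to NDUFV1, had -0.78 (SE 0.299), from 0.38 and -0.41. Its CON changes were 0.94, 1.06 and 0.69 in the females and -0.45 and 0.48 in the males. The -0.45 was again in replicate 4. At an unadjusted p under 0.05 the difference between the diet changes was negative in 3 of 34 members (5.69% of genes), and no member was called. NDUFAF3 had a difference of the other sign, 0.32. Between the maternal groups on HFCS, NDUFAF3 (0.34) and NDUFA11 (0.30) were higher in MUN and NDUFV2 (-0.52) and NDUFAB1 (-0.33) lower, with a smallest adjusted p of 0.333 in limma.

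On chow, NDUFS4 was higher in MUN than in CON muscle on every array. Its CON levels were 11.30, 11.23, 11.20, 11.26 and 11.46, and its MUN levels ran from 11.50 to 11.91 (median 11.61). The groups did not overlap, which held for 1 of 34 members and for 0.323% of genes. The difference was 0.37 (SE 0.114, 1.29-fold, unadjusted p = 0.00359 and adjusted p = 0.559 in limma). On HFCS the MUN levels ran from 11.08 to 11.70 and the CON levels from 11.01 to 11.63, a difference of 0.08. NDUFS4 and NDUFB5 (0.47) were the 2 of 34 members higher in MUN on chow at an unadjusted p under 0.05 (3.86% of genes), and the median of the members was 0.03. With the weak array included that median was 0.39, so the apparent excess of the members in MUN on chow came and went with that array.

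**Figure D4:**
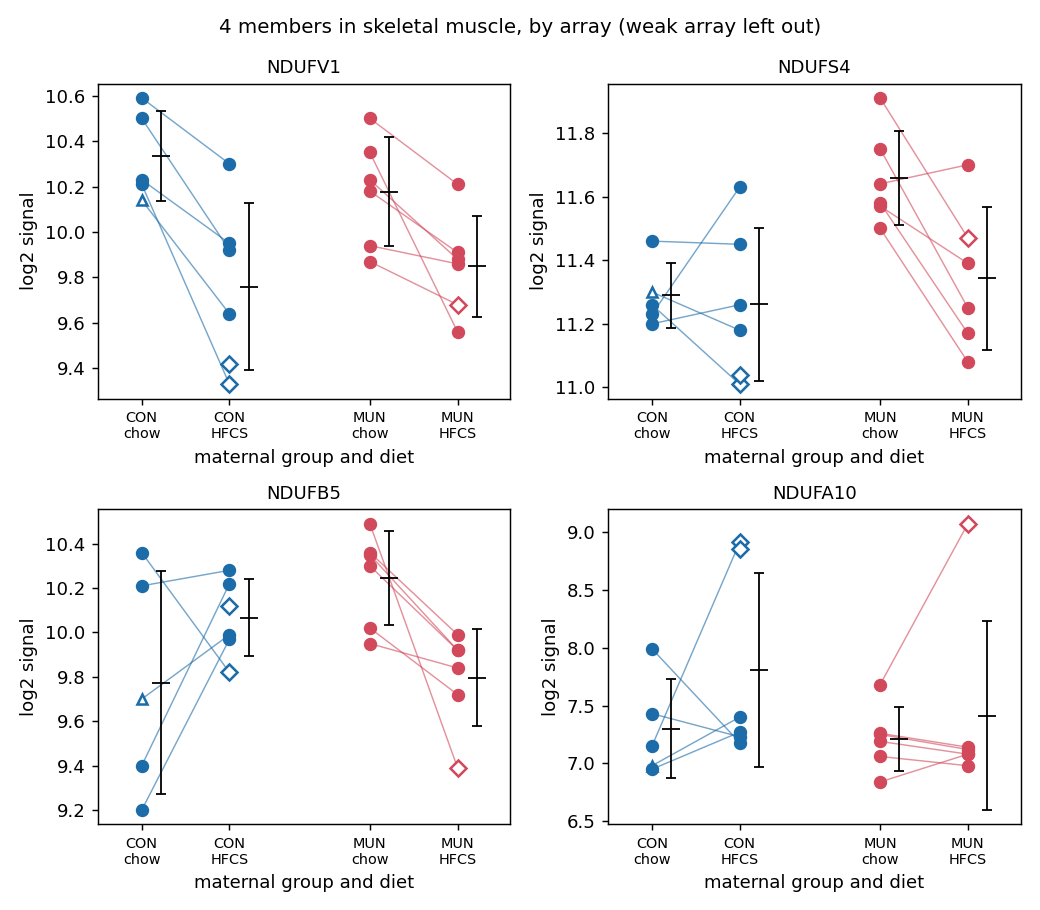
Log2 signals of NDUFV1, NDUFS4, NDUFB5 and NDUFA10 on each skeletal muscle array by maternal group and diet, with lines joining the arrays of an animal and bars for the mean and SD; diamonds mark arrays with high collagen, the triangle the array with high ALB, and the weak array is left out. NDUFV1 is lower on HFCS in 11 of 11 animals, the MUN arrays of NDUFS4 on chow start at 11.50, above the highest CON array at 11.46, and NDUFA10 reaches 9.07 on a high collagen array.

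NDUFA10, a proximal membrane arm subunit related to nucleoside kinases, ran against the other members in muscle. It was dim there, with a detected probe on 10 of 24 arrays. Its level was at 9.07, 8.91 and 8.85 on the 3 arrays with high collagen and at 7.99 on CON replicate 2 on chow, which had the next highest fibroblast mean (10.18). The other 19 arrays lay between 6.84 and 7.68. Its correlation over the 23 arrays was 0.87 with the fibroblast markers and -0.70 with the mean of the other members, both after subtraction of the group means and as a description. In adipose the same correlations were 0.88 and -0.34. These values come from 1 of its 2 probes, as the other was detected on 5 muscle and 2 adipose arrays and was not kept. NDUFA10 was the member with the largest positive difference for HFCS minus chow in CON (0.51, SE 0.359), where 2 of 6 HFCS arrays had high collagen.

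The other members varied together from array to array. After subtraction of the group means, the median correlation of a member with the mean of the others was 0.58 in muscle (23 of 34 above 0.5), 0.55 in adipose (16 of 31) and 0.33 in liver (10 of 31), and the share of other genes above 0.5 with the member mean was 8.11%, 5.2% and 3.51%. In muscle NDUFS7 (0.87), NDUFB3 (0.84) and NDUFB2 (0.82) followed the others most closely. Arrays share a normalisation and animals gave more than 1 array, so these values carry no test.

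In adipose the group medians of the member mean lay close together. The mean over the 31 members had group medians of 9.34 and 9.32 in CON on chow and on HFCS and of 9.37 and 9.28 in MUN, and it was lower on HFCS in 8 of 12 animals. The median difference for HFCS minus chow was -0.02 in CON and -0.10 in MUN, against 0.00 over all genes in both. NDUFA11, an accessory subunit at the junction of the membrane arm, had the smallest p of the comparison of maternal groups. Its CON levels on HFCS ran from 9.70 to 10.14 (median 10.00) and its MUN levels from 10.15 to 10.44 (median 10.31), so that the groups adjoined but did not overlap, as in 1 of 31 members and 0.442% of genes. The difference was 0.36 (SE 0.092, 1.28-fold, unadjusted p = 0.000648 and adjusted p = 0.156 in limma), and in CON NDUFA11 had a difference of -0.30 for HFCS minus chow. Pooled over maternal groups, 5 of 31 members were lower on HFCS at an unadjusted p under 0.05 (3.32% of genes), NDUFA11 (-0.21), NDUFS7 (-0.29), NDUFA1 (-0.29), NDUFB11 (-0.15) and NDUFA13 (-0.18), and the smallest adjusted p was 0.573.

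The diet changes of CON animals in adipose and in muscle were ordered alike over the members. Across the 31 members measured in both tissues Pearson's r was 0.71 and Spearman's rho 0.69, against 0.35 and 0.37 over 7504 genes. The samples are from the same animals, genes are not independent replicates, and no test was made. NDUFA1, NDUFA11, NDUFS7 and NDUFV1 were among the lowest in both tissues and NDUFA10 and NDUFB5 among the highest. In MUN animals the same relation had r = 0.23 and rho = 0.18, against 0.13 and 0.09 over the 7504 genes.

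**Figure D5:**
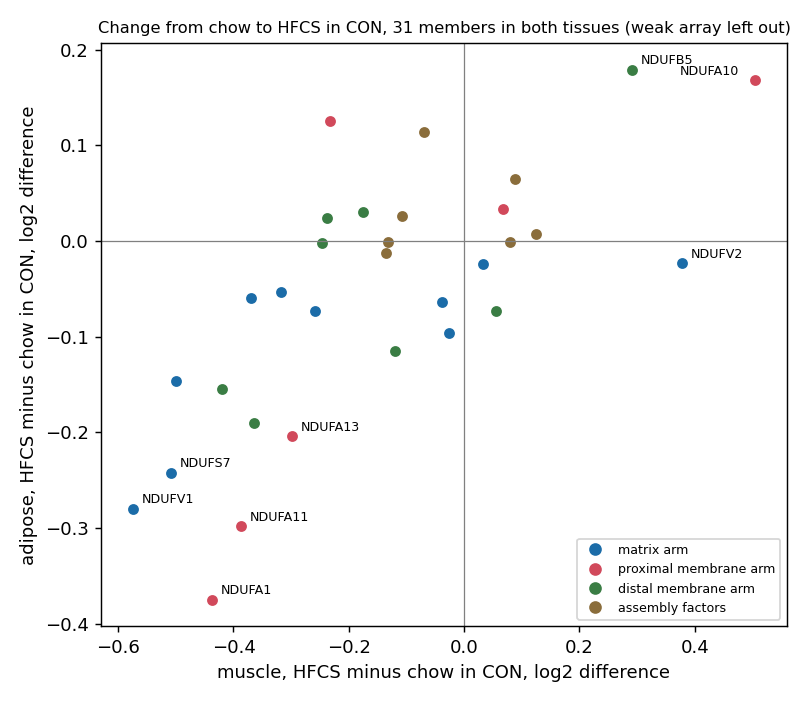
Log2 differences for HFCS minus chow in CON animals of the 31 complex I members measured in muscle (horizontal axis) and adipose (vertical axis), from limma without the weak muscle array; colours give the part of the enzyme. Points rise from the lower left, where NDUFV1, NDUFA1 and NDUFA11 lie, to NDUFB5 and NDUFA10 at the upper right, with r = 0.71.

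In liver the group levels of the members moved with the weak arrays. Without these arrays the mean over the 31 members had group medians of 9.07 and 9.11 in CON on chow and on HFCS and of 9.13 and 9.02 in MUN (n = 4 and 5). The median difference over the members then lay between -0.03 and 0.04 in the 5 comparisons. With all arrays it lay between -0.18, for MUN minus CON on HFCS, and 0.02, and over the other settings it ran from -0.27 to 0.29 for that comparison and from -0.07 to 0.30 for HFCS minus chow in MUN, with 0 members called in each. The highest value of both came from keeping only the genes detected on all arrays of the tissue. The values of single members that follow are without the weak arrays. On chow 3 of 31 members were higher in MUN at an unadjusted p under 0.05 (1.67% of genes), NDUFS4, NDUFB6 and NDUFB9. NDUFS4 levels on chow were 10.03, 9.92, 10.10, 9.68, 10.07 and 10.01 in CON and 10.10, 10.36, 10.42 and 10.32 in MUN replicates 1, 2, 3 and 5, so that the groups met at 10.10. The difference was 0.33 (SE 0.094, unadjusted p = 0.0019 and adjusted p = 1 in limma), and on HFCS it was 0.04. NDUFS4 in liver thus had a difference of the same sign and similar size as in muscle, from mostly the same animals, and in adipose the difference on chow was -0.02. On HFCS the liver members with the smallest p were NDUFA3 (0.30) and NDUFAF1 (-0.18), MUN minus CON.

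In muscle the other respiratory chain lists were set beside the members for the pooled diet contrast without the weak array. At an unadjusted p under 0.05, 9 of 15 complex V genes, 3 of 5 of complex III, 3 of 11 of complex IV, 1 of 3 of complex II and 6 of 10 TCA cycle enzymes were lower on HFCS (5.02% of genes), and 0 of 8 assembly factors without an NDUF name were. With all arrays these counts were 1 of 15, 0 of 5, 0 of 11, 0 of 3, 2 of 10 and 0 of 8. None of these genes was called in either set. Among the members, 1 of the 7 assembly factors, NDUFAF7, was among the 15 that were lower.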

How the data were processed

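Biopsy RNA was hybridised to HumanHT-12 v4 BeadChips. The intensity values are linear probe signals that the authors exported from GenomeStudio and deposited without normalization, and the deposited score beside each signal is a detection score that rises towards 1. The authors' value table holds quantile normalized intensity values and was used as an alternative. The study's own tests were made in Partek, and versions are not given in the sources used here. Only the 23458 probes with 1 gene symbol were used.

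No background was subtracted. The log2 signals of the kept probes were quantile normalised within a tissue, or over all 72 arrays between tissues, in R 4.3.3 with limma 3.58.1. The tests covered 8685 genes in liver, 8052 in muscle, 9277 in adipose and 6417 between tissues. Group means were fitted with no animal term within a tissue, as the paper's methods name no pairing, and with the animal as a random block between tissues. The number of arrays limits the precision. The same animals gave the arrays of both diets, as the paper and the labels state. With group means subtracted, the arrays of an animal correlated at a median of 0.368 in liver (above 0.1 in 11 of 12 animals), 0.176 in muscle (7 of 12) and 0.203 in adipose (9 of 12), and the animal as a replicate block was an alternative. Other alternatives were normexp with an offset of 16, median centring, the authors' values, other detection filters, the mean of the kept probes, array weights, the groups compared alone, no fold threshold, an ordinary F-test and each animal left out. Fits without the arrays with high ALB or high collagen and the pooled diet contrast were added after the data had been seen. The fits were tested on simulated data.

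Named genes are NDUFB5, NDUFS4 and NDUFAB1, the called members up to 12 each way, otherwise those with the smallest p, the members with the largest and smallest tissue differences in each part of the enzyme, and members not kept in a tissue. Genes outside this rule, among them NDUFA10 for its relation to collagen, were chosen after their values had been seen. The members and all gene lists were chosen with earlier results of these data known.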

Additional observations from a re-analysis of the deposited data

Results flagged for a closer look

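A total of 52 groups of 4 to 6 arrays, for the mean of the members and for named members, were searched for an array far from the rest, and 4 had one. Chance alone flags about 1 group in 20. With all arrays, the mean of the complex I members in liver of MUN on HFCS was 7.90 in replicate 4 (8.77 to 8.99 in the others), and in muscle of CON on chow it was 7.81 in replicate 5 (9.61 to 9.90 in the others). Both are weak arrays. NDUFB5 in liver of CON on HFCS was 9.38 in replicate 5 (8.92 to 9.07 in the others), and in adipose of MUN on chow it was 9.13 in replicate 4 (8.65 to 8.79 in the others).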

How the results depend on the processing

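In the 15 comparisons within tissues the count of members called was 0 under each alternative, except that NDUFV1 was called (1 member) in muscle for HFCS minus chow in CON without the weak array and with the animal as a replicate block; the block changed no other call. Leaving out the weak arrays changed the sign of 18 of 62 named values in liver and of 8 of 49 in muscle, none of them called. Between tissues, against 25 members called for liver minus muscle, 26 for adipose minus muscle and 8 for adipose minus liver, the CON arrays on chow alone, which include the weak muscle array, gave 10, 9 and 1. For adipose minus liver the count was 18 without the weak arrays, 15 with only the CON arrays on chow of these, 16 with median centring, 17 with the authors' values and 21 with normexp. Leaving out each animal in turn gave 24 to 27, 25 to 26 and 7 to 14 members, the 14 without MUN replicate 4. NDUFB8 for liver minus muscle was -0.02 with all arrays and -0.19 to 0.42 with each animal left out, and was called higher at 0.42 without MUN replicate 4 and at 0.32 without the weak arrays and with median centring. The cause was not tested. Signal over background limits the dim members, NDUFA5, NDUFA10, NDUFB1, NDUFA9, NDUFAB1, NDUFV3 and the assembly factors NDUFAF4 and NDUFAF6 among them.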
